A study of Lotus japonicus with 36 samples.

Results

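Root nodules of Lotus japonicus MG-20 on day 5 after nitrate withdrawal (group R5) were compared with nodules on day 2 of nitrate supply (group T2), 3 RNA-seq libraries against 3 out of 36 in the series. The members were taken by their labels: R5 is the fifth day after 10 mM KNO3 was taken away, and T2 is the second day of 10 mM KNO3. The groups were paired because they lie about equally far from untreated nodules. The other libraries used are T0, untreated nodules collected 4 weeks after inoculation, T1 and T3 to T6 on the other nitrate days, and R3 and R4 on withdrawal days 3 and 4. All are the same genotype, and each group has 3 libraries that the series describes as biological replicates. R5 nodules had been through a nitrate period of a length that the labels do not state, and each day is its own harvest, so plant age and treatment history cannot be told apart. No marker of nodule tissue could be checked, because the transcript model IDs could not be paired with gene names.

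Legume nodules house rhizobia that fix nitrogen inside infected plant cells, and the plant pays for this with carbon. Nitrate in the soil makes fixation dispensable: legumes given nitrate form fewer nodules, lower fixation in existing ones and, with longer supply, bring on nodule senescence. Fixation can resume after nitrate is removed. The question here is whether nodules on the way back pass through the states they passed on the way out, in reverse order.

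R5 and T2 lay about equally far from T0, which is why they were paired, and about as far from each other. Each library was placed on the line through the mean log2 CPM (counts scaled to library size) of T0 (0%) and T5 (100%), over the 18909 models called between those groups, 37.5% of the 50475 tested. The T2 libraries were at 43.7%, 48.0% and 41.8%, and the R5 libraries at 27.8%, 47.0% and 39.7%. R5 replicate 2 lay within the T2 range, and the other R5 libraries lay below it. The mean position was 44.5 ± 3.17% in T2 and 38.2 ± 9.73% in R5 (SD, n = 3), a difference of -6.32 points that was within the spread (exact two-sided permutation p = 0.4, where 0.1 is the smallest possible). The distance from T0 in any direction was 55.9 ± 1.85% of the line's length in T2 and 55.1 ± 3.44% in R5 (exact two-sided permutation p = 0.8). The choice of the pair largely fixes this likeness, and a permutation test with n = 3 per group cannot show equality. Off the line, R5 stood at 38.8 ± 5.14% and T2 at 33.7 ± 1.37% (exact two-sided permutation p = 0.3).

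Over all tested models the root mean square log2 difference between group means was 1.00 between T0 and T2, 0.93 between T0 and R5, and 0.99 between T2 and R5. The 3 groups thus formed a triangle with nearly equal sides, although T2 and R5 had similar positions along the nitrate course. The spread within a group enters these distances and was largest in R5, with a root mean square SD of 0.60 on the log2 scale beside 0.46 in T2 and 0.50 in T0. R5 replicates 1 and 2 correlated least, at 0.945 across models, beside 0.973 to 0.975 for the T2 pairs.

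**Figure D1:**
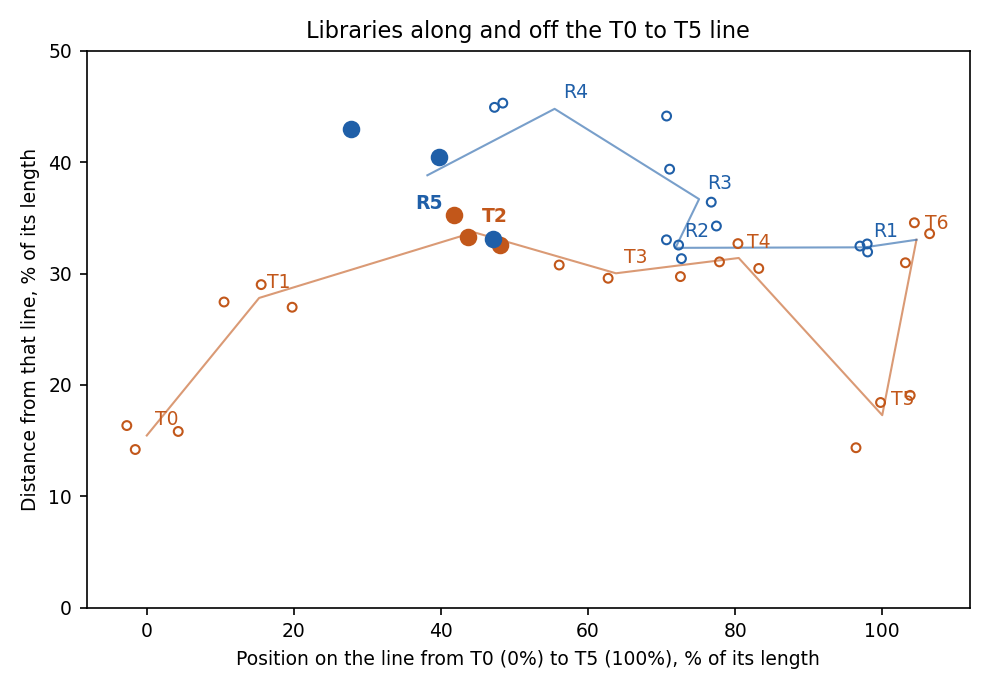
Each point is a library, placed by its position on the line from T0 to T5 (horizontal, % of the line's length). The vertical axis is its distance from that line in the same unit. Filled points are T2 and R5, and lines join the group means of the nitrate days (orange) and withdrawal days (blue). The blue line is drawn from T6, which is not a known start of withdrawal. T0 and T5 define the line and lie close to it for that reason; T2 spans 41.8% to 48.0% and R5 spans 27.8% to 47.0%.

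Between R5 and T2, 4947 transcript models were higher in R5 and 3626 lower, 8573 in all in 7315 loci. This was 17% of the models tested (9.8% higher, 7.18% lower), where a call needed at least a 2-fold change and an edgeR quasi-likelihood adjusted p under 0.05. For comparison, 19.1% were called between T2 and T0 and 12.1% between R5 and T0, comparisons that share the T0 libraries. The called models that were higher in R5 had a median log2 fold change of 1.66, and 1825 of them differed at least 4-fold. Those lower in R5 had a median of -1.54, and 1025 differed at least 4-fold. In 8148 of the 8573 called models every library of one group lay above every library of the other, while libraries did not overlap in 44.6% of all tested models. Of the called models, 6131 stand alone at their locus. The other called models can share reads with a second model of the locus. The models lower in R5 were shorter, with a median of 999 bp beside 1297 bp for those higher in R5 and 1224 bp for all tested models. In nodule tissue a lower level can mean fewer cells of a type or less RNA per cell, which bulk libraries cannot tell apart.

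The most abundant transcripts show the ways in which the groups differed. Of the 20 models ranked highest by mean CPM over the 6 libraries, 7 were higher in R5, 4 were lower and 9 were not called. Over all tested models 9.8% were higher and 7.18% lower. The ranking used the same 6 libraries, so a model could enter through the group where it was high. The 20 models therefore do not show whether abundant models differed more often. The 7 higher models took 2.09 ± 0.26% of all counts in T2 and 6.64 ± 1.5% in R5, beside 7.2 ± 0.56% in T0 (SD, n = 3). The 4 lower models took 2.27 ± 0.16% in T2 and 0.678 ± 0.22% in R5, beside 0.896 ± 0.076% in T0. The calls define these groups, so the direction from T2 to R5 is fixed, and the sums mix unlike models. Among the 7, R5 means ran from 44.5% of the T0 mean (3771 bp) to 102.5% (493 bp), apart from a 1030 bp model. That model had 4537 CPM in R5 and 21.78 CPM in T0. Among the 4, they ran from 27.3% (1813 bp) to 292% (1425 bp). The models are given by length, since their function is not annotated in the sources used here.

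Some abundant nodule transcripts were reduced on nitrate day 2 and stood near their untreated level on withdrawal day 5. The model ranked first, 471 bp long, had 8571, 7302 and 10350 CPM in the T2 libraries and 32360, 16960 and 20980 CPM in the R5 libraries. All R5 libraries lay above all T2 libraries (log2 fold change 1.42 ± 0.30 SE, edgeR adjusted p = 0.000486), and the R5 mean was 98.4% of the T0 mean of 23830 CPM. A 493 bp model of the same locus was also higher in R5 (log2 fold change 1.86 ± 0.35 SE) and may share reads with it. A 558 bp model of another locus was at 2594, 1857 and 2486 CPM in T2 and at 18870, 8650 and 11920 CPM in R5 (log2 fold change 2.51 ± 0.42 SE, edgeR adjusted p = 3.11e-05), or 13.7% and 78.0% of its T0 mean. In each of these 3 models R5 replicate 1 was the highest library and R5 replicate 2 the lowest of its group.

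Other abundant transcripts were below T0 in both groups and did not differ detectably between them. A 1371 bp model stood at 3818, 3293 and 4327 CPM in T2 and at 5654, 2637 and 3310 CPM in R5, so the groups overlapped (log2 fold change 0.02 ± 0.32 SE, edgeR adjusted p = 0.972). Both means were below its T0 mean of 8130 ± 850.5 CPM, at 46.9% in T2 and 47.6% in R5. An 8539 bp model stood at 52.3% of its T0 mean in T2 and 58.2% in R5 (log2 fold change 0.16 ± 0.27 SE, edgeR adjusted p = 0.706).

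Other models stood above T0 in both groups, or departed from it in one. A 1425 bp model had 7546, 8115 and 9606 CPM in T2 and 1748, 2868 and 1649 CPM in R5, beside a T0 mean of 715.2 ± 74.05 CPM (log2 fold change -2.01 ± 0.22 SE, edgeR adjusted p = 5.62e-08). Both groups thus lay above T0, T2 farther than R5. A 1030 bp model was at 21.78 ± 35.01 CPM in T0, at 94.0, 664.9 and 786.8 CPM in T2 and at 3522, 5887 and 4203 CPM in R5 (log2 fold change 3.14 ± 1.04 SE, edgeR adjusted p = 0.0198). Its highest level of these groups was in T6, at 31240 ± 11990 CPM, so R5 lay between T2 and T6. An 1813 bp model had T2 near T0 and R5 below both. It was at 4018, 4372 and 5192 CPM in T2 and at 1082, 1868 and 1403 CPM in R5 (log2 fold change -1.64 ± 0.25 SE, edgeR adjusted p = 9.33e-06). Its R5 mean was 27.3% of the T0 mean, its T2 mean 85.0%, and in T6 it had stood at 4122 ± 1264 CPM.

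**Figure D2:**
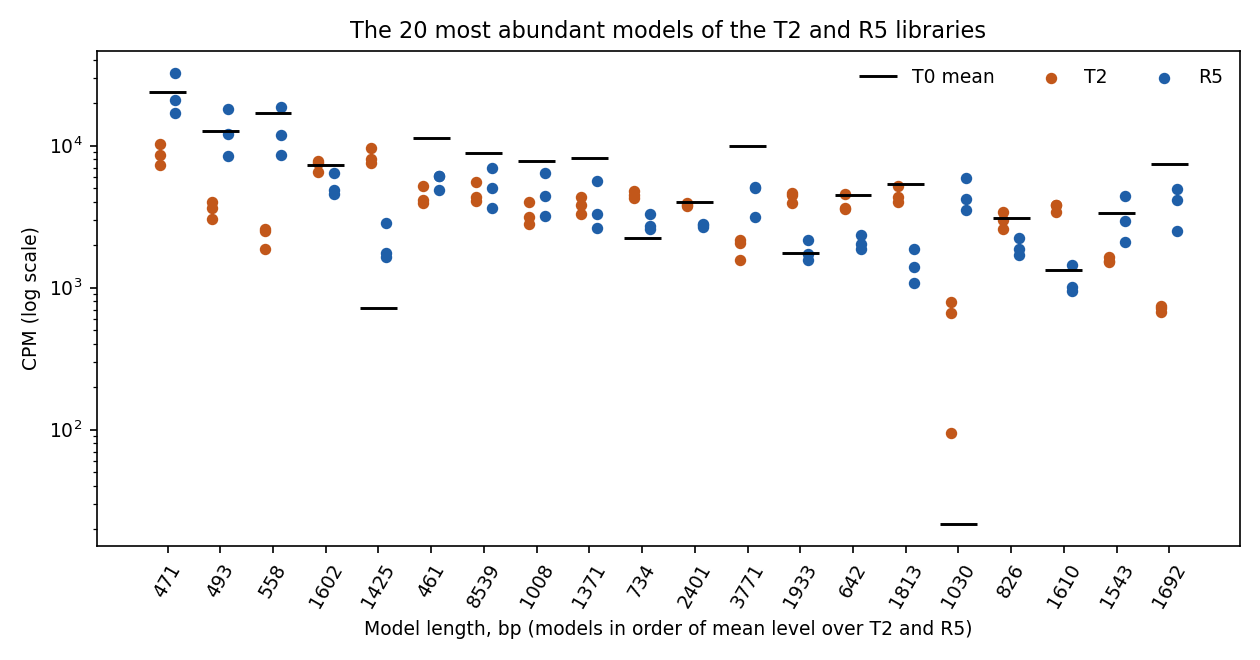
CPM on a log axis of the 20 models that rank highest by mean CPM over the T2 and R5 libraries, labelled by length in bp; points are single libraries of T2 (orange) and R5 (blue), black bars are T0 means of 3 libraries. R5 lies near the T0 bar for the 471 bp and 493 bp models, T2 and R5 lie together below it for the 8539 bp and 1371 bp models, and R5 alone lies far below it for the 1813 bp model.

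The models that differed most were either at or near 0 on nitrate day 2 and present throughout withdrawal, or at their peak on nitrate day 2 and near 0 on withdrawal day 5. Lj5g3v0035520.1, of 1706 bp, had 0, 0.646 and 0 CPM in the T2 libraries and 173, 305 and 138 CPM in the R5 libraries (log2 fold change 9.94 ± 0.73 SE, edgeR adjusted p = 2.32e-10). All T2 counts lay in replicate 2, with 26 counts, and the ratio of pooled counts was 1020 (exact 95% interval from 695 to 1560, counting error only). Leaving out 1 library moved the fitted log2 fold change between 9.31 and 15.97, the last without T2 replicate 2, where no T2 count remains and the value depends on the prior count. It was at 12.9 ± 9.7 CPM in T3, 122 ± 35.2 CPM in T5 and 263 ± 29 CPM in T6, and stayed between 171 and 389 CPM in the group means of R1 to R5. Lj6g3v1995800.1, of 1238 bp, had a total of 1 count in the 3 T2 libraries and 624, 597 and 500 counts in the R5 libraries. Its R5 levels were 16.8, 13.6 and 11.3 CPM (log2 fold change 10.31 ± 0.94 SE, edgeR adjusted p = 7.66e-09), and the ratio of pooled counts was 1760 with an exact 95% interval from 316 to 69800 that covers counting error only. Its fitted log2 fold change ran from 9.82 to 12.09 with 1 library left out, the last without T2 replicate 3. It was at 9.27 ± 3.52 CPM in T6 and had its highest group mean in R2, at 33.1 ± 9.77 CPM. The highest T0 library had 0.202 CPM of Lj6g3v1995800.1 and 0.0645 CPM of Lj5g3v0035520.1.

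Lj4g3v2106090.1, of 724 bp, had 14.2, 14.4 and 16.1 CPM in the T2 libraries and 0.081, 0.0686 and 0.0227 CPM in the R5 libraries (log2 fold change -7.97 ± 0.53 SE, edgeR adjusted p = 9.34e-11). Its T0 mean was 1.62 ± 0.451 CPM, so that T2 stood above and R5 below the untreated level. Lj3g3v3153000.1, of 1228 bp, had 21.4, 18.1 and 20.8 CPM in T2 and 0, 0.0229 and 0.272 CPM in R5 (log2 fold change -7.56 ± 0.75 SE, edgeR adjusted p = 1.4e-08), with a T0 mean of 1.65 ± 0.316 CPM. Without R5 replicate 3 its log2 fold change was -10.32, and the ratio of pooled counts was 194 (exact 95% interval from 113 to 364, counting error only). In both models T2 had the highest group mean of all 12 groups and R5 the lowest, an order that their choice by R5 against T2 favours. All 4 models are the sole model of their locus and have counts unlike those of any other row, with 72.2% to 100% of the values whole, so some reads may be shared with other loci. They were also called in the same direction between R4 and T3, with log2 fold changes of 3.73, 2.81, -4.35 and -5.05 in the order given here (largest edgeR adjusted p = 5.63e-05).

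**Figure D3:**
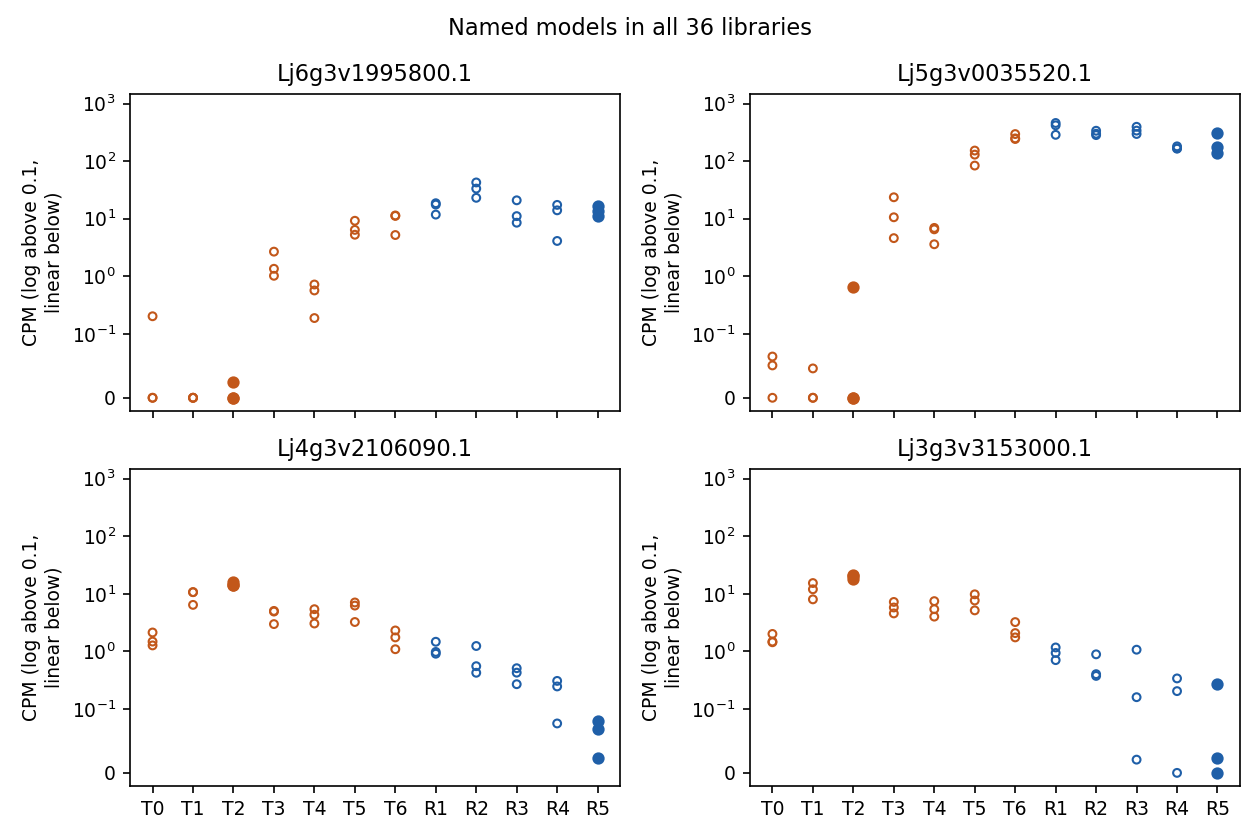
CPM of the 4 named models in each of the 36 libraries, by group in the order of sampling, on an axis that is linear below 0.1 CPM and logarithmic above; filled points are T2 and R5. The upper models are near 0 in T2 and above 10 CPM in R5; the lower models peak in T2, at 14.2 CPM or more, and have at most 0.272 CPM in R5.

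At equal positions on the line, a reversed decline would leave the models that nitrate had moved at the same level in R5 and T2. The mean position was 38.2% in R5 and 44.5% in T2, within the spread, so part of a difference can be position. The models moved by nitrate were chosen by T5 against T0, which uses none of the 6 libraries, and the counts differed between the directions. Of the 8231 models lower in T5 than in T0 (16.3% of those tested), 2005 or 24.4% were called higher in R5 than in T2 and 382 or 4.64% lower. Their median log2 fold change was 0.45, beside 0.05 for all tested models. Of the 10678 models higher in T5 (21.2% of those tested), 1232 or 11.5% were called higher in R5 than in T2 and 1347 or 12.6% lower, with a median of 0.01. The balance of the risers had no stable direction: chosen by T6, 1386 were higher and 1149 lower, and without R5 replicate 1 the counts were 1360 and 1050. Without T2 replicate 1 they were 1228 and 1169, and without T2 replicate 2 they were 1254 and 1212. The difference in medians between fallers and risers was not tested.

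By library, the median of the nitrate fallers relative to the T0 mean was -0.89, -0.95 and -0.84 in T2 and -0.21, -0.70 and -0.46 in R5 on the log2 scale. The R5 libraries all lay above the T2 libraries. The median of the risers was 0.99, 0.98 and 0.84 in T2 and 0.56, 1.05 and 0.85 in R5, and the groups overlapped. The median nitrate-lowered transcript thus stood closer to T0 in every R5 library than in any T2 library, whereas the median nitrate-raised transcript did so in R5 replicate 1 alone. Among the most strongly raised models, at least 8-fold in T5, 23% were higher in R5 than in T2 and 12% lower (n = 3015, median 0.54). Among those at least 8-fold lower in T5, 37.2% were higher in R5 and 3.21% lower (n = 2025, median 0.98).

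The difference between R5 and T2 varied with the day on which a model was first called against T0. Onset was taken as the first call against T0 among nitrate days 1, 3, 4, 5 and 6, without the T2 libraries, and models called in both directions on different days were set apart. The calls on these days covered 3.3%, 23.9%, 34.1%, 37.5% and 39.7% of the tested models. Of the 992 models first higher on day 1, 583 or 58.8% were lower in R5 than in T2 and 16 were higher, with a median log2 fold change of -1.29. By library, their median relative to T0 was 0.44, 1.13 and 0.66 in R5 and from 2.00 to 2.13 in T2. Every R5 library thus held less of the first-day rise than every T2 library.

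Risers with a later onset did not show this. The 5739 models first higher on day 3 had a median of -0.03, and 12.3% were higher and 14% lower in R5. Of the 3204 models first higher on day 4, 4.96% were higher and 9.33% lower (median -0.16). Of the 2436 models first higher on day 5, 13.7% were higher in R5 than in T2 and 2.5% lower (median 0.24). Their medians by library were 0.39, 0.41 and 0.31 in T2 and 0.51, 0.65 and 0.63 in R5, so that here the R5 libraries stood above the T2 libraries. The 1202 models first higher on day 6 had a median of 0.08, and their R5 and T2 libraries overlapped.

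Among the falling models the shift was seen for onset on days 1, 3 and 4. Of the 602 models first lower on day 1, 305 or 50.7% were higher in R5 than in T2 and 8 were lower, with a median log2 fold change of 1.08. Their median relative to T0 was -1.62 ± 0.06 in T2 and -0.67 ± 0.30 in R5 (mean ± SD of 3 libraries), and the libraries of the groups did not overlap. Of the 4914 models first lower on day 3, 35.8% (1760 models) were higher in R5 and 2.14% lower, with a median of 0.82. The day 3 risers had no such shift. Of the 2868 first lower on day 4, 15.5% were higher and 3% lower (median 0.41). For the 1784 models first lower on day 5 the direction turned: 3.03% were higher and 11.3% lower in R5, with a median of -0.20. Their library medians were -0.22, -0.31 and -0.17 in T2 and -0.34, -0.47 and -0.43 in R5, without overlap. The 1928 models first lower on day 6 had a median of -0.07, with 3.79% higher and 10.9% lower. Their library medians were -0.19, -0.26 and -0.24 in T2 and -0.27, -0.38 and -0.33 in R5, also without overlap but closer together.

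Set against the level reached on nitrate day 6, the group means of the onset classes were spread widely in T2 and narrowly in R5. The classes were sorted by calls on the nitrate days around T2, which itself places early classes nearer their T6 level in T2 than late ones; withdrawal libraries had no part in the sort. The wide spread in T2 is therefore a description that the sort largely fixes, and the contrast with R5 was not tested. The T6 median defines 100% here, and the T6 libraries had a part in choosing the last class. In T2 the day 1 risers stood at 93.3% of their T6 median and the day 1 fallers at 105%, while the day 5 risers stood at 28.7% and the day 5 fallers at 16.4%. In R5 the same classes stood at 33.4%, 43.5%, 46.3% and 29%. Over all 10 classes the range was 16.4% to 105% in T2 and 19.4% to 46.3% in R5. By group mean, some classes in T2 were thus at their day 6 level and others far short of it. Every class mean in R5 was at a partial level, but single R5 libraries differed widely. R5 replicates 1 to 3 had log2 medians relative to T0 of -0.09, -0.79 and -0.42 in the day 3 fallers. In the day 4 risers they had 0.16, 0.79 and 0.53. For the day 3 fallers, R5 replicate 1 lay within the T0 libraries, at 0.1, 0.05 and -0.15.

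The levels of these classes were also compared between T6 and the withdrawal days. The labels do not state the nitrate day on which withdrawal began, so T6 is a reference and not a known starting point. The day 1 fallers had a median of -1.54 ± 0.05 in T6, -1.36 ± 0.06 in R3, -0.74 ± 0.48 in R4 and -0.67 ± 0.30 in R5 on the log2 scale relative to T0 (mean ± SD of 3 libraries). The day 5 fallers had -1.43 ± 0.10 in T6, -0.93 ± 0.03 in R3 and -0.41 ± 0.07 in R5. The day 1 risers had 2.23 ± 0.04 in T6, 1.62 ± 0.12 in R3 and 0.74 ± 0.35 in R5, and the day 5 risers 1.29 ± 0.13, 0.90 ± 0.07 and 0.60 ± 0.08. On withdrawal day 3 the day 1 fallers were at 88.3% of their T6 median. The day 3, 4, 5 and 6 fallers were at 69.3%, 57.3%, 65% and 59.8%. The day 1 class thus stood apart, and the later classes had no order by onset. The risers showed no such difference, at 72.9% for onset on day 1 and 70% for onset on day 5.

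Relative to T2, then, R5 held less of the change in the day 1 classes of both directions and in the day 3 and day 4 fallers, and slightly more in the day 5 classes. The day 3, 4 and 6 risers and the day 6 fallers had medians between -0.16 and 0.08. Of these classes, the day 6 fallers had library medians slightly farther from T0 in R5 than in T2, without overlap. At equal positions, a reversed decline would give medians near 0 in every onset class. The onset classes were not set against a point of the decline at the mean position of R5. The day of a first call also depends on the size of the change and on the power of each test.

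**Figure D4:**
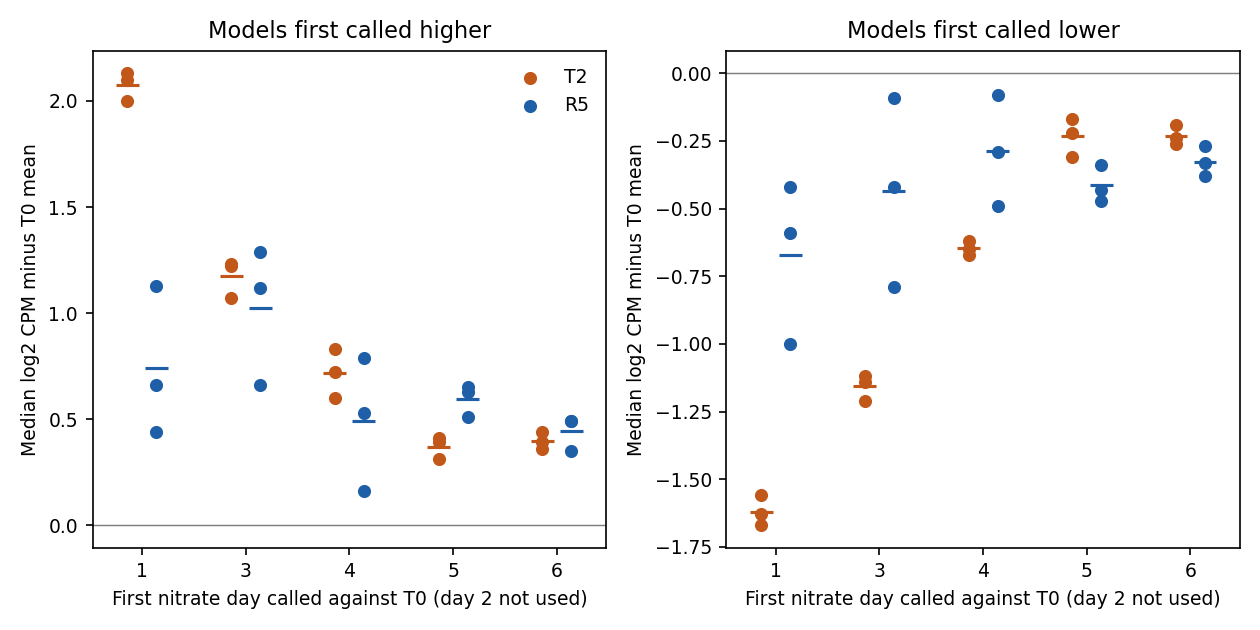
Median log2 CPM relative to the T0 mean over the models first called higher (left) or lower (right) than T0 on each nitrate day, for each library of T2 (orange) and R5 (blue), with bars at the mean of 3 libraries. For onset on day 1 T2 spans 2.00 to 2.13 and R5 spans 0.44 to 1.13; for onset on day 5 the R5 libraries lie slightly farther from 0 than the T2 libraries on both sides.

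Another 198 models moved first one way and then the other under nitrate, and they had the largest median differences of the onset classes. In 169 the first call against T0 was lower and a later one higher. Of these, 127 or 75.1% were higher in R5 than in T2 and 1 was lower, with a median log2 fold change of 2.22 and a median length of 679 bp. In the other 29 the first call was higher and a later one lower, and 21 were lower in R5 and 2 higher (median -1.67).

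Part of the difference was in models with no call against T0 on any nitrate day outside T2. A missing call at a 2-fold threshold with 3 libraries does not show that a model did not respond. The 24608 models never called against T0 on nitrate days 1, 3, 4, 5 or 6 gave 857 models higher in R5 than in T2 (3.48%) and 1202 lower (4.88%). Both shares were below those over all tested models, 9.8% and 7.18%. Of the 24608 models, 503 were higher in R4 than in T0 (13.1% of all tested models were) and 801 were lower (7.93% of all). The 801 had a median of -0.81 in R5 against T2, with 274 called lower and 0 called higher (34.2% and 0%). The 503 had a median of 0.71, with 128 called higher and 5 lower. In these models R4 was called against T0 while nitrate days 1 and 3 to 6 had no call. The remaining 23304, called in neither direction in R4, still held 729 models higher (3.13%) and 923 lower (3.96%) in R5 than in T2.

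The T5 fallers and risers were also split by whether R3 was called against T6 in the direction of T0. T6 is again a reference and not a known start of withdrawal. R3 was called against T6 in 5.38% of tested models as higher and 5.05% as lower. Of the 1971 fallers called higher in R3 than in T6, 36.6% were higher in R5 than in T2 and 3.45% lower (median 0.70), and of the 6260 other fallers 20.5% and 5.02% (median 0.38). The 2109 risers called lower in R3 than in T6 went both ways, with 16.5% higher and 21.8% lower in R5 than in T2 and a median of 0.10. The other 8569 risers had 10.3% higher and 10.4% lower.

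The calls were also counted by untreated level. Over all tested models 9.8% were higher in R5 than in T2 and 7.18% lower. Of the 1624 models at 100 CPM or more in T0, 211 or 13% were higher and 108 or 6.65% lower. This number of higher models fell to 137 without R5 replicate 1. Among the 80 models at 1000 CPM or more, 16 were higher in R5 (20%) and 11 lower (13.8%). The 649 models with 0 counts in all T0 libraries held 102 models higher in R5 (15.7%) and 52 lower (8.01%), many at low level. In the classes between, from above 0 to 100 CPM, 7.93% to 11.1% were higher and 6.36% to 7.76% lower, near the shares over all tested models.

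The same kind of comparison was made with other libraries, R4 against T3, which share none with R5 and T2. R4 lay at 55.5 ± 13.2% on the line and T3 at 63.8 ± 8.29%. Between R4 and T3, 13.3% of the tested models were higher and 9.86% lower. Of the 4947 models higher in R5 than in T2, 3317 or 67.1% were also higher in R4 than in T3 and 43 were lower. Their means had the same direction in 92.8%, while the R4 mean was above the T3 mean in 49.5% of all tested models. Of the 3626 models lower in R5, 2019 or 55.7% were also lower in R4 and 28 were higher. Across 38626 models of at least 1 CPM in some group, Pearson's r between both sets of log2 fold changes was 0.698 and Spearman's rho 0.713. These are correlations across models, which are not independent. R3 against T4, where 7.41% of models were higher and 6.58% lower, gave 1911 of the models higher in R5 and 1337 of those lower in the same direction. The difference between R5 and T2 was weakly correlated with the overall nitrate change: its correlation with T5 against T0 was -0.094 (Pearson) and -0.164 (Spearman). With the first-day change, T1 against T0, it was -0.427 and -0.528.

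**Figure D5:**
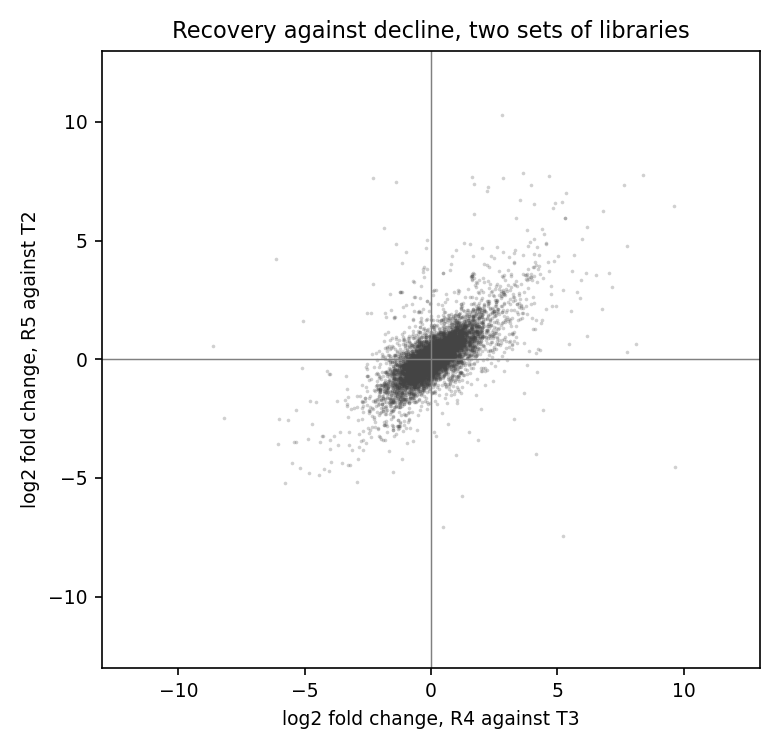
Log2 fold change of R5 against T2 (vertical) and of R4 against T3 (horizontal) for 8000 models drawn at random from the 38626 with at least 1 CPM in some group; each point is a transcript model. The cloud runs along the rising diagonal, with a Pearson correlation of 0.698 over all 38626 models and no library in common.

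The mean position of R5 was below that of T2, by less than the spread between libraries, and R5 was also set against a point of the decline at its own mean position, a mean of 21.7% T1 and 78.3% T2. Against this point 5083 models were higher in R5 (10.1% of those tested) and 3269 lower (6.48%). Of the models higher in R5 than in T2, 4350 or 87.9% remained called, and of those lower, 3114 or 85.9%. The median of the nitrate fallers was then 0.33 and that of the risers 0.15, with 16.6% of the risers higher and 10.4% lower. Both comparisons use the R5 and T2 libraries.

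The step into R5 was compared with the mirrored step out of T2, since R3 to R5 and T2 to T4 cover similar parts of the line and share no library. T4 was called higher than T2 in 5.92% of tested models and lower in 5.77%, and R5 was called higher than R3 in 7.71% and lower in 4.66%. Of the 2910 models lower in T4 than in T2, 1444 or 49.6% were higher in R5 than in R3 and 30 were lower, with a median log2 fold change of 1.14. Of the 2988 models higher in T4 than in T2, 816 or 27.3% were lower in R5 than in R3 and 19 were higher, with a median of -0.77. Read from the withdrawal side, 37.1% of the 3894 models higher in R5 than in R3 had been lower in T4 than in T2, and 34.7% of the 2354 models lower in R5 had been higher. Pearson's r between the 2 steps was -0.53 and Spearman's rho -0.489 across 38626 models. By direction of the mean alone, 85.4% of the models lower in T4 were higher in R5 than in R3, and 87.8% of those higher in T4 were lower. The share by direction over all tested models is not given for this step.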

How the data were processed

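Estimated counts and FPKM values of 50526 transcript models were deposited by the authors. Per the submitters' processing notes the tools were fastp 0.22.0, HISAT2 and featureCounts; build, annotation, strand setting and treatment of multiple matches are not given in these sources. In the deposited estimated counts 49.6% of values were not whole (tolerance 0.001), so models can share reads. The deposited FPKM values served only to derive model lengths. A RefSeq gene table of another assembly matched 0 IDs, so no gene names, gene lists or cell type markers were used.

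Counts were rounded and fitted with edgeR 4.0.16 in R 4.3.3 (glmQLFit, glmQLFTest, TMM, filterByExpr) in a model of all 36 libraries, whose totals ran from 34194054 to 45795038. 50475 models passed the filter. Calls required a log2 fold change of at least 1 in size and an adjusted p (Benjamini-Hochberg) under 0.05; SEs were derived from the test statistic. CPM levels use TMM-adjusted library sizes, and positions use log2 CPM with a prior count of 2. Models named by ID were the 2 largest differences each way, 1 per locus, among called models without overlap of libraries whose higher group averaged 10 CPM or more. The members, sets and tests were chosen with earlier results of these data known, and the mirrored step, the split of models called in both directions and the split by R4 were added after the planned tests. The fit was tested on simulated data. Nothing says whether replicates came from separate plants, so p-values measure the spread between these libraries. For the edgeR p-values this spread was estimated over all 36 libraries together, and not from R5 and T2 alone. Within-group chi-square statistics of the counts were 14.4 or more per degree of freedom, and no library was treated as a duplicate. Same-numbered R5 and T2 libraries did not deviate together (correlations of -0.084, -0.035 and -0.117), so the numbers were not taken to pair them.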

Additional observations from a re-analysis of the deposited data

How the results depend on the processing

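Of 226 values recomputed under alternatives for the counts, medians and positions above, 222 were kept. Counts had to stay within a factor of 1.5 and medians within the spread between libraries. Differences in position had only to keep their sign, whatever their size. All 44 recomputed fold changes of the named models kept direction and call. In the fit of the 6 libraries alone their edgeR adjusted p-values were larger, from 5.24e-05 to 0.000902. Higher and lower models numbered 4950 and 3659 with RLE size factors, 4950 and 3627 with no filter, 4141 and 3359 in a fit of the 6 libraries alone, 5130 and 3816 by DESeq2, 4957 and 3628 with normalization within length bins, and 4188 and 2908 as loci. Without the fold threshold they were 9281 and 7684. With the replicate number as a replicate block they were 4868 and 3580, and the block changed no call of a named model; the numbers do not pair the libraries. Choosing the nitrate models by T6 in place of T5 gave 578 fallers lower in R5 in place of 382, and turned the balance of the risers; the cause was not tested. The difference in position was -1.58 points on a line from T0 to T6.

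Leaving out each R5 or T2 library in turn gave 4099 to 5949 higher and 2985 to 4233 lower models. Risers called lower numbered 1050 to 1531 and higher 1017 to 1360; fallers called higher 1420 to 2591 and lower 259 to 392. The position difference ran from -11 to -1.09 points, and the number of T0-abundant models higher in R5 from 137 to 297. The median of the day 1 risers ran from -1.52 to -1.14 and that of the day 1 fallers from 0.96 to 1.24. Against the matched point of the decline 4122 to 5815 models were higher and 2684 to 3838 lower. Fold changes of models with few counts in either group depend on the prior count, as the values of the named models without 1 library show.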
